A study of Mus musculus with 10 samples.

Results

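The dual-specificity MAP kinase phosphatases examined here were the products of 9 genes, Dusp1, Dusp2, Dusp3, Dusp4, Dusp5, Dusp6, Dusp7, Dusp10 and Dusp16. They were taken as a named list from the array table, and each was read by the probe set annotated to that gene alone. All 9 were found among the 19938 genes measured, each with 1 such probe set. Expression was measured on 10 arrays hybridised with biotin-labelled cDNA from immortalized mouse macrophages of a wild-type B6 line and of a line named TLR9KO, which is named for the loss of Toll-like receptor 9, a sensor of microbial CpG DNA in endosomes. Wild-type cells were left unstimulated (3 arrays) or given β-1,3 glucan beads at 20 beads per cell for 4 h (3 arrays), and knockout cells were left unstimulated (2 arrays) or given the same beads for the same time (2 arrays). β-1,3 glucan is a sugar of the fungal cell wall that the receptor Dectin-1 binds. Each genotype was represented by 1 named line, so the genotype and other differences between the lines cannot be told apart, and the way the cells were immortalized is not stated.

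MAP kinases of the ERK, JNK and p38 families are switched on when a threonine and a tyrosine in their activation loop are both phosphorylated. Dual-specificity phosphatases remove both phosphates and so end the signal, and the genes of several of them are themselves induced by MAP kinase activity, which makes a negative feedback loop. In macrophages, DUSP1 is known for restraining p38 and JNK after microbial stimuli and thereby limiting cytokine production. DUSP2, DUSP4 and DUSP5 are further nuclear, inducible members, DUSP6 and DUSP7 are cytoplasmic and prefer ERK, DUSP10 and DUSP16 act on JNK and p38, and DUSP3 is a small phosphatase without the MAP kinase binding domain of the others.

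All values are log2 signals after RMA, an array method that corrects background, normalises the arrays and merges the probes of a set into 1 value. Signals of different genes come from different probes. They were set beside each other only to mark low signals and to describe cell type markers. The median over all genes and arrays was 6.12. The label of the cells fitted their markers. All 9 macrophage markers had mean signals over the 10 arrays of 7.22 or higher. Below the median of 6.12 lay 5 of 6 lymphocyte, 6 of 6 granulocyte, 4 of 5 dendritic cell and 3 of 6 fibroblast markers. The lowest of the macrophage means was that of Mertk, which read 6.04 to 6.38 in the knockout arrays, near that median. The log2 signals of the macrophage markers summed to 92.0 and 92.2 in wild type without and with beads. In the knockout line they summed to 96.9 and 96.0. The median log2 difference of these markers between the lines was 0.63 without and 0.61 with beads. In the knockout, 4 of 9 were higher and 1 lower both without and with beads (Cd14 at 2.46 and 2.42 and Fcgr1 at 1.14 and 0.88 higher, Mertk at -1.50 and -1.94). After median centring, 3 and 2 of the 9 passed without and with beads. The part of these markers in the results below was not tested. Of the markers of other cell types, 0 passed in either comparison. In whole-culture RNA, fewer cells of a kind and less RNA per cell cannot be told apart. Tlr9 was read at 6.91 to 7.44 in wild type and 7.31 to 7.62 in knockout arrays (0.37 ± 0.15, SE, limma adjusted p = 0.244 without beads; 0.10 ± 0.15, adjusted p = 1 with beads). The position of this probe set with respect to the deletion is not known here, and so its signal does not check the labels.

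Wild-type bead array 3 stood apart. Its mean Pearson correlation with its group mates across genes was 0.973, against 0.985 to 0.997 for the other arrays, and its SD over genes was 1.75 against 1.86 to 2.00. Among the phosphatases it read lower than the mean of wild-type bead arrays 1 and 2 by 0.58 for Dusp3, 0.57 for Dusp16, 0.49 for Dusp1, 0.48 for Dusp4 and 0.41 for Dusp6, and higher by 0.39 for Dusp2 and 0.28 for Dusp10. Dusp7 and Dusp5 moved least, at -0.084 and -0.033. Results are therefore given with and without this array where it changes them. By the same correlation, each knockout array was closest to one of the other treatment. Unstimulated array 1 paired with bead array 2, and unstimulated array 2 with bead array 1. In wild type, unstimulated array 2 was closest to bead array 1, and bead array 3 to unstimulated array 1. The remaining wild-type arrays were closest to an array of their own group. The fit takes no account of such pairs, and their cause was not tested.

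**Figure D1:**
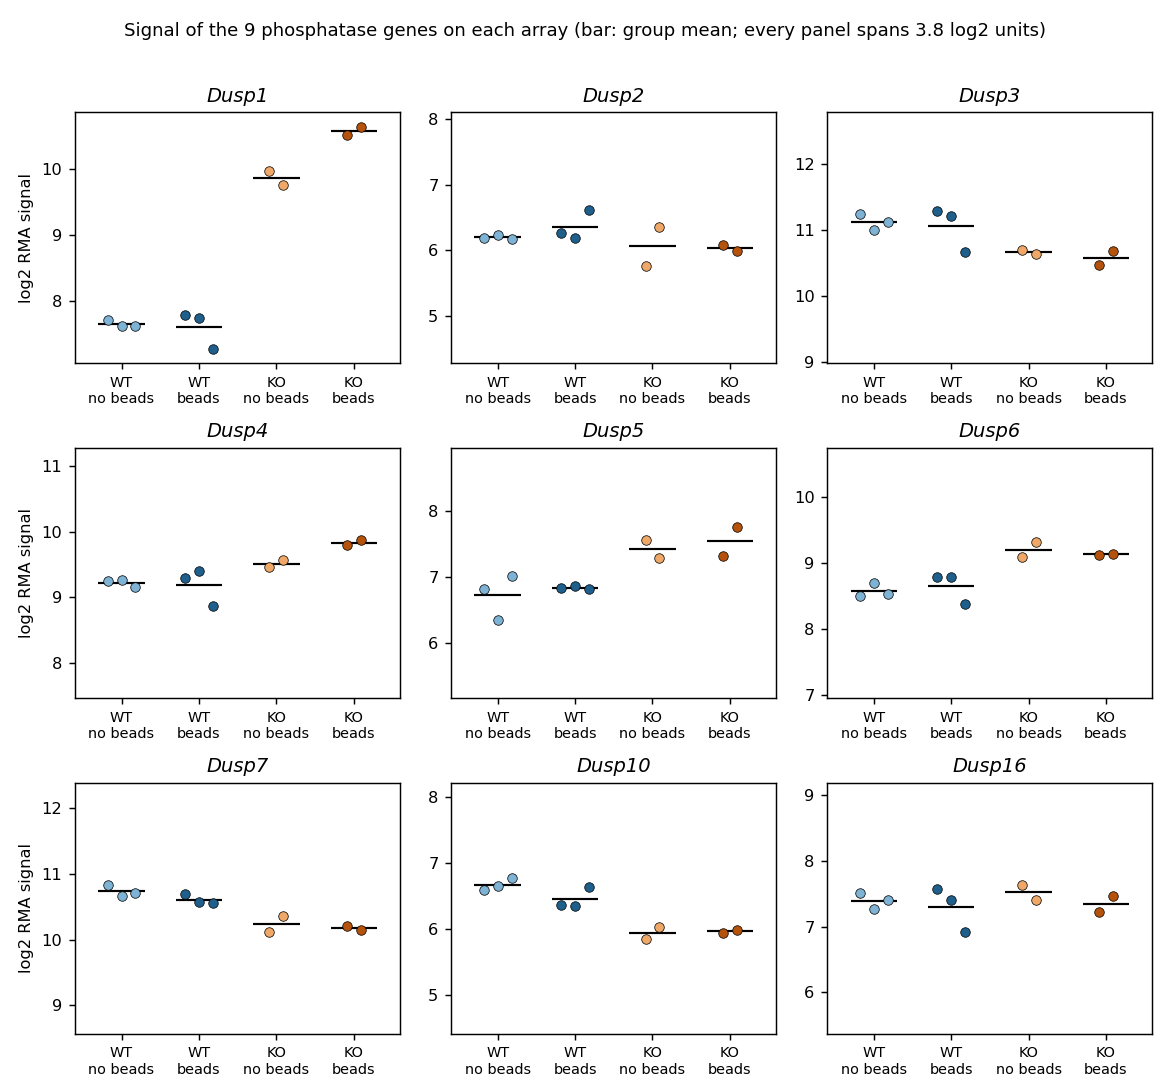
Log2 RMA signal (vertical axis) of each phosphatase gene on each of the 10 arrays, by group (horizontal axis), with 1 point per array and a bar at the group mean. Dusp1 sits near 7.65 in unstimulated wild type and at 9.86 and 10.58 on average in the knockout without and with beads.

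The knockout line expressed far more Dusp1 than the wild-type line, and the other 8 genes differed by less than 1 log2 unit in either direction. Without beads, 4 of 9 genes passed limma at an adjusted p under 0.05, where 8.25% of all genes passed: Dusp1 and Dusp6 were higher (3.79% of all genes) and Dusp7 and Dusp10 lower (4.46%). With beads, 4 of 9 passed, where 7.22% of all genes did, with Dusp1 and Dusp4 higher (3.82%) and Dusp7 and Dusp10 lower (3.4%). Dusp1, Dusp7 and Dusp10, 3 of 9, passed in both comparisons, as did 5.97% of all genes. The comparisons use different arrays of the same lines. Without wild-type bead array 3, 7 of 9 passed in each comparison, all but Dusp2 and Dusp16, where 18.4 and 20.9% of all genes passed. The median difference of the 9 genes was 0.13 without beads and 0.050 with beads, beside 0.017 and -0.011 over all genes. Without beads the arrays of the lines did not overlap for 7 of 9 genes, all but Dusp2 and Dusp16 (38.8% of all genes). With beads they did not overlap for 7 of 9, all but Dusp3 and Dusp16 (23.6%). All 4 knockout arrays lay outside the range of the 6 wild-type arrays for 6 of 9 genes, above it for Dusp1, Dusp4, Dusp5 and Dusp6 and below it for Dusp7 and Dusp10, and 15.2% of all genes were separated in this way.

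**Figure D2:**
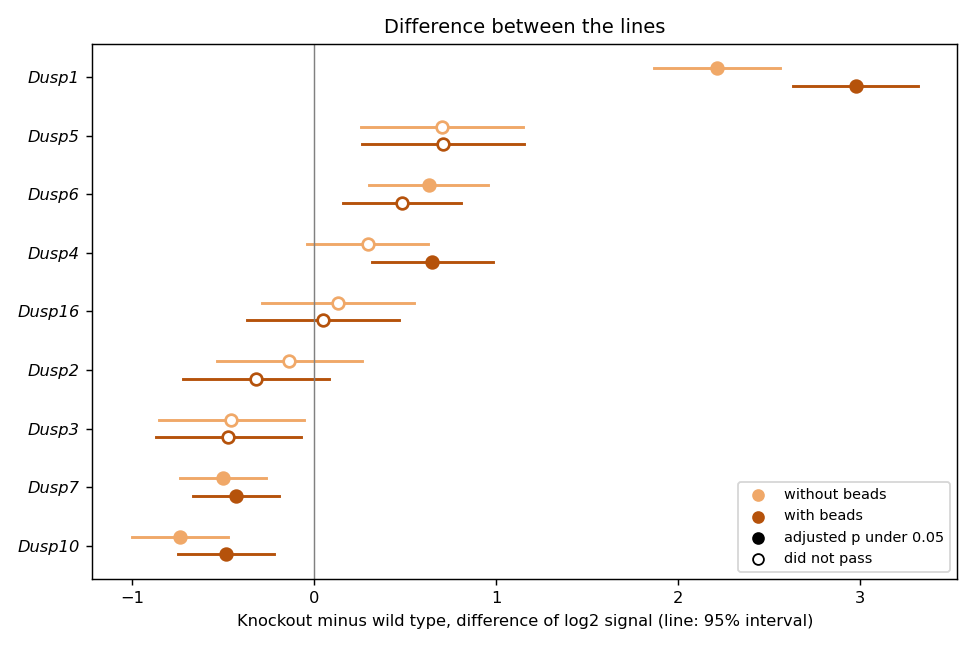
Knockout minus wild-type difference of log2 signal (horizontal axis) for each phosphatase gene (vertical axis), without beads (light) and with beads (dark), with 95% intervals of the limma fit; filled points passed at an adjusted p under 0.05. Dusp1 lies at 2.21 and 2.97, and all other points lie between -0.74 and 0.71.

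Dusp1, the early-response phosphatase of the nucleus, had signals of 7.71, 7.62 and 7.62 in unstimulated wild type and of 9.96 and 9.77 in the unstimulated knockout. With beads it was read at 7.79, 7.74 and 7.28 in wild type and at 10.51 and 10.64 in the knockout. Every knockout array was thus above every wild-type array, and the knockout bead arrays were above the unstimulated knockout arrays. The difference between the lines was 2.21 ± 0.15 (SE) without beads, a 4.64-fold higher signal (limma adjusted p = 2.6e-05, n = 2 and 3). With beads it was 2.97 ± 0.15, or 7.86-fold (limma adjusted p = 5.21e-06), and 2.81, or 7.02-fold, without wild-type bead array 3. It passed in both comparisons under each of the 18 alternative settings, at 2.11 to 2.31 without beads and 2.81 to 3.07 with beads. In the order of the groups, knockout with beads came first, then knockout without beads, then the wild-type groups, whose arrays overlapped.

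The promoter of Dusp1 is shown because this gene carried the largest difference. It spans 250 bases before to 50 bases after the transcription start in RefSeq, at chr17:26508423-26508722 on the minus strand of GRCm38.p6, and is written 5′ to 3′ along the gene. Capitals mark matches to 6 motifs searched on both strands: the cAMP response element TGACGTCA (CRE), its half-site TGACG, the AP-1 site TGANTCA, and the interferon-stimulated response element (ISRE), the CArG box and the NF-kappaB site, which may overlap one another.

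Dusp1: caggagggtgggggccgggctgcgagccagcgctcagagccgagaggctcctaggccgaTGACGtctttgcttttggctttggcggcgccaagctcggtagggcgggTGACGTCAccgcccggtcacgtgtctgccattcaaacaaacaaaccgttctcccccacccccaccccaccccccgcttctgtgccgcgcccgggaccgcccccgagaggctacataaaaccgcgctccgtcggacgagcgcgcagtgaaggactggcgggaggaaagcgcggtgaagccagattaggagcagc

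This window held the full CRE, the site bound by CREB and ATF factors, from -143 to -136 relative to the start site, and a separate half-site from -191 to -187. The full element was present in 1.79% of the 32851 promoter windows of this table, and its half-site, which also lies within the full element, in 20.8%. No AP-1, CArG, NF-kappaB or ISRE letters were matched here. Of all windows, 7.81, 1.63, 4.51 and 3.44% held these motifs. The Dusp1 window was 67% G and C, beside a median of 52.7% over all windows. The shares were not taken among windows of like composition. A match is a description of the sequence, and binding was not measured.

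By the Pearson correlation over the 10 arrays, the genes most like Dusp1 among 9970 genes whose highest group mean reached the median of all signals were Ptpn22 (r = 0.995), Cxcl14 (0.994) and Cd109 (0.993). Ptpn22 encodes a tyrosine phosphatase of immune receptor signalling, Cxcl14 a chemokine and Cd109 a membrane-anchored glycoprotein. Ptpn22 averaged 5.93 and 5.95 in wild type without and with beads and 8.07 and 8.39 in the knockout, the same split between the lines. Ptpn22 and Cd109 lay below that median in wild type and entered the ranking through their knockout groups, so the ranking took in genes with this split that a limit on every group would have left out. In all, 291 of these genes had r over 0.95, and the arrays share their line and treatment. Within the 6 wild-type arrays the correlation with Dusp1 was 0.93 for Ptpn22, 0.62 for Cd109 and 0.36 for Cxcl14. There Ptpn22 read 5.66 to 6.11 and Cd109 5.74 to 6.13. Detection calls were not used, so signals this low cannot be told from background. Wild-type bead array 3 was the lowest of these 6 arrays for both Dusp1 (7.28) and Ptpn22 (5.66). The correlations without this array were not computed.

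Dusp4, another inducible nuclear phosphatase, was read at 9.25, 9.26 and 9.15 in unstimulated wild type and 9.46 and 9.57 in the unstimulated knockout. With beads the signals were 9.29, 9.40 and 8.87 in wild type and 9.80 and 9.87 in the knockout. All knockout arrays were above all wild-type arrays, and the bead arrays of the knockout were the highest. The lines differed by 0.65 ± 0.15 (SE) with beads (limma adjusted p = 0.028), and by 0.29 ± 0.15 without beads, which did not pass (adjusted p = 0.373). The call with beads was lost under 8 of 18 alternatives at 0.61 to 0.68 (adjusted p = 0.0508 to 0.277), including without unstimulated wild-type array 1 or 3 or any of the 4 knockout arrays. Leaving out wild-type bead array 3 gave 0.49 with beads (adjusted p = 0.00325) and 0.29 without (adjusted p = 0.0302), so that both passed. The difference without beads also passed after quantile normalisation (0.37, limma adjusted p = 0.0138) and with array weights.

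Dusp5, the nuclear phosphatase selective for ERK, had signals of 6.81, 6.35 and 7.01 in unstimulated wild type, 6.82, 6.86 and 6.81 in wild type with beads, 7.56 and 7.29 in the unstimulated knockout and 7.31 and 7.76 in the knockout with beads. The knockout arrays were all higher than the wild-type arrays, but the unstimulated wild-type arrays were spread from 6.35 to 7.01. The difference of 0.70 ± 0.20 without beads and 0.71 ± 0.20 with beads did not pass (limma adjusted p = 0.0651 and 0.0703). Both passed without wild-type bead array 3, at nearly the same size (0.70, adjusted p = 0.0242, and 0.70, adjusted p = 0.0357). Without unstimulated wild-type array 2 the difference with beads passed too. Both also passed after quantile normalisation (limma adjusted p = 0.0223 and 0.0222) and with array weights. In the compared groups alone, the difference without beads passed (adjusted p = 0.0373).

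The Dusp5 promoter, at chr19:53528895-53529194 on the plus strand of GRCm38.p6 and over the same span as above, is shown for a feature that the Dusp1 window lacks.

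Dusp5: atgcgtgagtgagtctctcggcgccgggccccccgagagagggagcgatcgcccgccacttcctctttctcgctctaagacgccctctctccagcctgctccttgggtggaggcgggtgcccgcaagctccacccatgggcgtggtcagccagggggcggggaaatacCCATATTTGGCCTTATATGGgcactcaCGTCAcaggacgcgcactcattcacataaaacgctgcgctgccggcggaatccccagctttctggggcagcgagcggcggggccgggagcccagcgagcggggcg

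The long run of capitals holds adjacent CArG boxes, from -82 to -73 and from -72 to -63. The CArG box is the site of serum response factor, through which ERK activity induces early genes. It occurred in 1.63% of all promoter windows, whatever their composition, and the Dusp5 window was 66.7% G and C. A CRE half-site from -55 to -51 is the remaining match. Of the 8 genes with a promoter in the table, Dusp1 alone held the full CRE and Dusp5 alone a CArG box. Dusp2 and Dusp16 each held 1 half-site, and Dusp3, Dusp6, Dusp7 and Dusp10 matched none of the 6 motifs. Dusp4 had no entry.

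Dusp2, the inducible nuclear phosphatase of immune cells, was near the median of all signals throughout. Its signals were 6.19, 6.23 and 6.17 in unstimulated wild type, 6.26, 6.19 and 6.62 in wild type with beads, 5.77 and 6.36 in the unstimulated knockout and 6.08 and 5.99 in the knockout with beads. The highest value came from wild-type bead array 3, and groups next to each other in the order of their means overlapped. Both knockout bead arrays, however, lay below all wild-type bead arrays. Differences of -0.14 ± 0.18 without beads and -0.32 ± 0.18 with beads did not pass (limma adjusted p = 0.964 and 0.5), with 95% intervals from -0.54 to 0.26 and from -0.72 to 0.081. Detection calls were not used here, so a signal this low cannot be told from background.

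The cytoplasmic ERK phosphatases went opposite ways. Dusp6, a feedback inhibitor whose expression follows ERK activity, was read at 8.50, 8.70 and 8.52 in unstimulated wild type and 9.09 and 9.32 in the unstimulated knockout. With beads the signals were 8.79, 8.78 and 8.37 in wild type and 9.13 and 9.14 in the knockout. All knockout arrays exceeded all wild-type arrays. The line difference was 0.63 ± 0.14 (SE) without beads, or 1.55-fold (limma adjusted p = 0.0269), and 0.48 ± 0.14 with beads, which did not pass (adjusted p = 0.0894). The call without beads was lost under 7 of 18 alternatives at 0.51 to 0.74 (adjusted p = 0.05 to 0.276), namely after median centring and without unstimulated wild-type array 1 or 3 or any of the 4 knockout arrays. With wild-type bead array 3 left out, the difference with beads passed at 0.35 (adjusted p = 0.0383). It passed too after quantile normalisation (0.51, limma adjusted p = 0.008) and with array weights.

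Dusp7 was lower in the knockout line. Its signals were 10.83, 10.66 and 10.71 in unstimulated wild type, 10.69, 10.57 and 10.55 in wild type with beads, 10.12 and 10.35 in the unstimulated knockout and 10.20 and 10.15 in the knockout with beads. The highest knockout array was below the lowest wild-type array. The difference was -0.50 ± 0.11 (SE) without beads, a signal 1.41-fold lower (limma adjusted p = 0.0178), and -0.43 ± 0.11 with beads (adjusted p = 0.0395). The first call was lost under 4 of 18 alternatives at -0.54 to -0.38 (adjusted p = 0.0615 to 0.194), after median centring and without unstimulated wild-type array 1 or 3 or unstimulated knockout array 1. The second was lost under 10 at -0.46 to -0.38 (adjusted p = 0.0551 to 0.269), among them without any single one of wild-type bead arrays 1 and 2, the 3 unstimulated wild-type arrays and the 2 knockout bead arrays. Both passed when wild-type bead array 3 was left out (-0.50 and -0.46).

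Dusp7 is also a close neighbour of Tlr9, with 2 measured genes between them in the RefSeq order of GRCm38.p6, a fact looked up after its values were seen. Of the 10 measured genes on each side of Tlr9, 2 of 20 passed without beads and 2 with beads. The shares of all genes were 8.25 and 7.22%. Both times these were Dusp7 and Abhd14a (-0.68 and -0.60), which lie on the same side of Tlr9. On that side Poc1a (-0.47), Abhd14b (-0.67), Parp3 (-0.59), Alas1 (-0.28), Gpr62 (-0.13) and Acy1 (-0.022) were also lower without beads but did not pass. Rpl29 (0.048) and Pcbp4 (0.10) there were higher. With beads, Poc1a (-0.27), Abhd14b (-0.64), Parp3 (-0.54), Alas1 (-0.076) and Gpr62 (-0.044) were lower. Acy1 (0.12), Rpl29 (0.14) and Pcbp4 (0.19) were higher with beads. On the other side the differences without beads lay between -0.21 (Ppm1m) and 0.25 (Twf2). With beads they lay between -0.28 (Pik3r4) and 0.12 (Twf2). Whether the lines differ in DNA around Tlr9 was not tested.

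Dusp10, which acts on JNK and p38, was also lower in the knockout line. It was read at 6.60, 6.66 and 6.78 in unstimulated wild type, 6.37, 6.36 and 6.64 in wild type with beads, 5.85 and 6.03 in the unstimulated knockout and 5.95 and 5.99 in the knockout with beads. The groups of the lines did not overlap, and the knockout values were just below the median of all signals. The knockout signals were as low as those of Dusp2 and likewise cannot be told from background, so no fold is given. The signals differed by -0.74 ± 0.12 (SE) without beads (limma adjusted p = 0.00435). With beads it was -0.49 ± 0.12 (adjusted p = 0.0376). The call without beads was lost in 1 of 18 alternatives, without unstimulated knockout array 1 (-0.65, adjusted p = 0.0659). The call with beads was lost in 11, at -0.54 to -0.47 (adjusted p = 0.0566 to 0.24), among them without any single array other than wild-type bead array 3. Without that array it was -0.39 (adjusted p = 0.0149).

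The Dusp10 promoter, at chr1:184034131-184034430 on the plus strand of GRCm38.p6, is shown beside those of Dusp1 and Dusp5 as that of a gene of opposite direction. It has no capitals, since none of the 6 motifs matched, which says only that these letters are not in the window.

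Dusp10: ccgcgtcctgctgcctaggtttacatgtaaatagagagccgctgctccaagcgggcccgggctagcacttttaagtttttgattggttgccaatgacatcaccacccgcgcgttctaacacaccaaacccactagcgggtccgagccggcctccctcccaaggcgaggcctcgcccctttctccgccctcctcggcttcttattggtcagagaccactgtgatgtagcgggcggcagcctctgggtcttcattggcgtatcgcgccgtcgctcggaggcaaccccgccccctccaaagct

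Dusp16, the other phosphatase of JNK and p38, did not differ detectably. Its signals were 7.51, 7.27 and 7.40 in unstimulated wild type, 7.57, 7.40 and 6.91 in wild type with beads, 7.64 and 7.40 in the unstimulated knockout and 7.22 and 7.46 in the knockout with beads. All neighbouring groups overlapped. The difference was 0.13 ± 0.19 without beads and 0.050 ± 0.19 with beads (limma adjusted p = 0.979 and 1), with 95% intervals from -0.29 to 0.55 and from -0.37 to 0.47. With beads it was -0.14 without wild-type bead array 3.

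Dusp3 was read at 11.23, 11.00 and 11.12 in unstimulated wild type and 10.69 and 10.63 in the unstimulated knockout. With beads it was read at 11.28, 11.20 and 10.66 in wild type and 10.47 and 10.68 in the knockout. Only wild-type bead array 3 reached down into the knockout range. The difference was -0.46 ± 0.18 without beads and -0.47 ± 0.18 with beads, and neither passed (limma adjusted p = 0.194 and 0.193). In the absence of wild-type bead array 3 both passed, at -0.46 (adjusted p = 0.00728) and -0.67 (adjusted p = 0.00141). Both also passed after quantile normalisation (limma adjusted p = 0.0242 and 0.0121) and with array weights. In the compared groups alone, the difference without beads passed (adjusted p = 0.0141).

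No phosphatase gene passed for beads in either line with all 10 arrays. In wild type 0 of 9 and 0 of all 19938 genes passed limma (0%), and 0 of 9 and 167 genes (0.838%) had an unadjusted p under 0.05. In the knockout line 0 of 9 and 0 genes passed (0%), with 1 of 9, Dusp1, and 359 genes (1.8%) at an unadjusted p under 0.05. The bead arrays did not overlap the unstimulated arrays for 0 of 9 genes in wild type (3.53% of all genes) and for 2 of 9, Dusp1 and Dusp4, in the knockout (24.4% of all genes). The median bead difference of the 9 genes was -0.050 in wild type and -0.026 in the knockout, beside 0.014 and 0.0039 over all genes. With array weights, whose estimation stopped before convergence and put a weight of 12.1 on wild-type bead array 2 and of 0.0701 on array 3, 9174 genes (46%) and 4 of the 9 passed in wild type, and 16 genes (0.0802%) and Dusp1 in the knockout.

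In the knockout line, Dusp1 was read at 9.96 and 9.77 without beads and at 10.51 and 10.64 with beads, values that did not overlap, but the difference did not pass the adjusted test. It was 0.71 ± 0.17 (SE), or 1.64-fold, with a 95% interval from 0.34 to 1.09 (limma adjusted p = 0.875, and 0.00199 unadjusted), the 21st highest difference of all genes. Wild-type bead array 3 enters this test only through the pooled spread, and in its absence the SE was 0.095 and Dusp1 passed (adjusted p = 0.0357), as 1 of 17 genes (0.0853%). In wild type the Dusp1 difference was -0.050 ± 0.14 (95% interval from -0.36 to 0.26), and 0.11 ± 0.087 without array 3. The bead responses of the lines differed by 0.76 ± 0.22 for Dusp1 (limma adjusted p = 1, and 0.00614 unadjusted), and by 0.60 ± 0.13 without that array (adjusted p = 0.512). A difference in response was thus not established by the test across all genes, where 0 genes passed and 172 (0.863%) had an unadjusted p under 0.05.

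Dusp4 had the next highest bead difference in the knockout, 0.32 ± 0.16 (limma adjusted p = 1; 95% interval from -0.045 to 0.68). Its bead arrays, 9.80 and 9.87, were above the unstimulated 9.46 and 9.57. The other 7 genes lay between -0.18 for Dusp16 and 0.11 for Dusp5 in the knockout. In wild type the largest difference in size was that of Dusp10, at -0.22 ± 0.11 (95% interval from -0.46 to 0.013), and at -0.32 ± 0.087 without array 3 (adjusted p = 0.333). Leaving out array 3 turned the wild-type bead difference of Dusp3 from -0.067 to 0.13, that of Dusp4 from -0.037 to 0.12 and that of Dusp16 from -0.098 to 0.091.

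**Figure D3:**
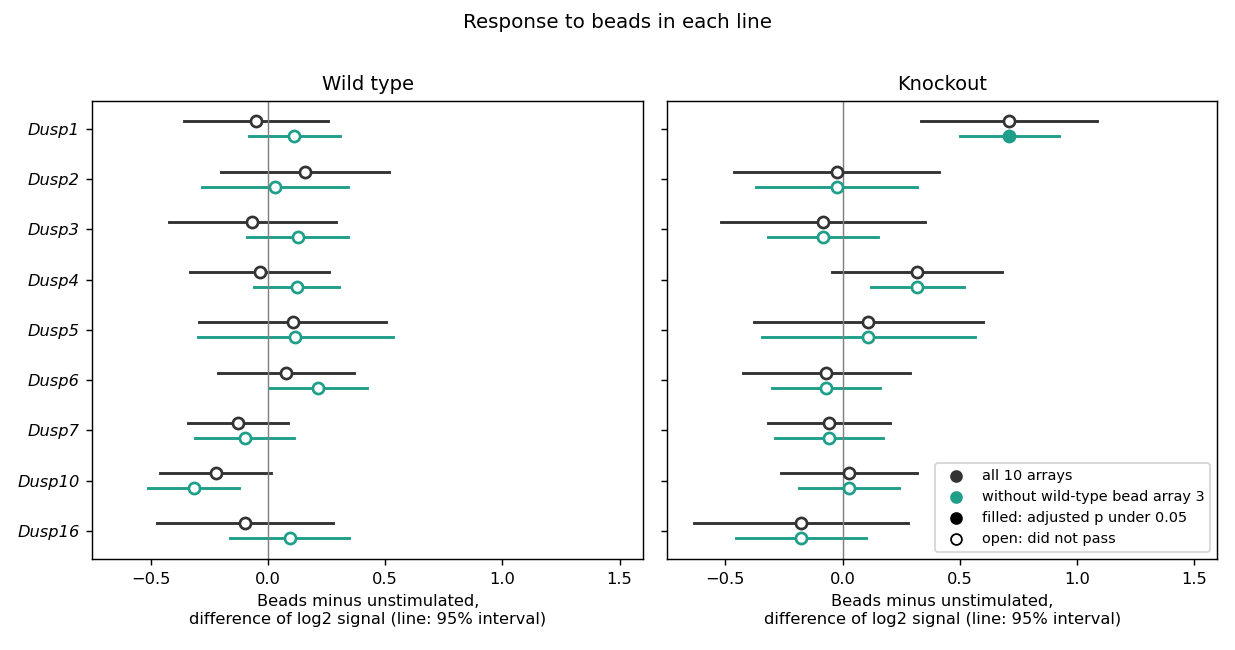
Beads minus unstimulated difference of log2 signal (horizontal axis) for each phosphatase gene (vertical axis) in wild type (left) and knockout (right), with 95% intervals of the limma fit over all 10 arrays (black) and without wild-type bead array 3 (green); filled points passed at an adjusted p under 0.05. Dusp1 in the knockout is at 0.71, and it passes only in the fit without that array.

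The pathway around these phosphatases was read through lists of related genes, given here as counts, to be read beside the shares of all genes above. Of the remaining dual-specificity phosphatases, 0 of 2 further MAP kinase phosphatases (Dusp8 and Dusp9) and 0 of 14 atypical members passed in either comparison of the lines. Without wild-type bead array 3 these were 1 of 2 and 3 of 14 without beads and 0 of 2 and 1 of 14 with beads, in fits where 18.4 and 20.9% of all genes passed. Among 8 other phosphatases that act on MAP kinases, Ptpn7, a tyrosine phosphatase of ERK and p38 in blood cells, was lower in the knockout line both without and with beads (-0.93 ± 0.11, limma adjusted p = 8.49e-04, and -0.89 ± 0.11, adjusted p = 0.00109). Its signals were 10.48, 10.57 and 10.52 in unstimulated wild type and 9.44 and 9.75 in the unstimulated knockout, and it passed under all 18 alternatives. Of the 8, 2 passed with beads when wild-type bead array 3 was left out, where 20.9% of all genes did.

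Of 12 measured MAP kinases 0 passed without or with beads, with medians of -0.059 and -0.15, and 2 and 4 passed when wild-type bead array 3 was left out, beside 18.4 and 20.9% of all genes. Of 6 MAP kinase kinases, 0 passed without beads and 1 with beads, Map2k3, which activates p38 (0.87 ± 0.094, limma adjusted p = 4.45e-04). Map2k3 read 9.10, 9.03 and 8.87 in wild type with beads and 9.86 and 9.89 in the knockout with beads. Among 16 kinases and partners above them, Map3k5, which starts the JNK and p38 cascades under stress, was higher without beads (0.99 ± 0.18) and with beads (0.81 ± 0.18), and Map3k14, the NF-kappaB inducing kinase, with beads (0.34 ± 0.087). Of 7 kinases that MAP kinases activate, the p38 targets Mapkapk2 (-0.50 ± 0.11 and -0.71 ± 0.11) and Mapkapk3 (-0.62 ± 0.095 in both) were lower in the knockout, and the list's median was -0.36 and -0.42. Of these calls, Mapkapk2 lost its own in 6 and 3 alternatives, Mapkapk3 in 2 and 2, Map3k5 in 2 and 5 and Map3k14 in 14 of 18, while Map2k3 with beads passed in all 18. When wild-type bead array 3 was left out, 1 and 2 of the 6 MAP kinase kinases passed without and with beads. Of the 16 kinases and partners above them 3 and 4 passed, and of the 7 activated kinases 5 passed with beads. In these fits 18.4 and 20.9% of all genes passed without and with beads.

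Among feedback inhibitors, Spred1, which blocks the step from RAS to RAF, was the 1 of 7 Sprouty and Spred genes to pass, at 1.05 ± 0.12 without beads and 0.95 ± 0.12 with beads, under all 18 alternatives. The list's medians were 0.18 and 0.024. With beads, 3 of 7 passed when wild-type bead array 3 was left out, where 20.9% of all genes did. Of 18 early genes that MAP kinases induce, 8 were higher and 0 lower in the knockout line, without and with beads alike, with medians of 0.32 and 0.34 beside 0.017 and -0.011 over all genes. With beads the count was 4 when only the compared groups were fitted (2.41% of all genes) and 4 without knockout bead array 2 (2.99%), settings in which Zfp36 lost its call too. The signals of Fos, a subunit of AP-1, differed by 2.35 ± 0.15 and 2.38 ± 0.15. They were 5.99, 5.79 and 6.03 in unstimulated wild type and 8.39 and 8.17 in the unstimulated knockout. Those of the mRNA decay factor Zfp36 differed by 2.28 ± 0.31 and 1.93 ± 0.31, and those of the transcription factor Egr1 by 1.59 ± 0.17 and 1.82 ± 0.17. Wild-type Fos and Egr1 signals were near those of Dusp2, which cannot be told from background, so these 3 differences were not ranked. Of 8 genes that glucocorticoids induce, 0 passed without beads. With beads 1 of 8 passed, Klf9 (0.70 ± 0.14), whose call was lost in 4 of 18 alternatives. The count without beads rose to 1 or 2 in 8 of 18 alternatives. Without wild-type bead array 3 it was 2 of 8 both without and with beads. Glucocorticoids are also known to induce Dusp1, but their part in these data was not tested.

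**Figure D4:**
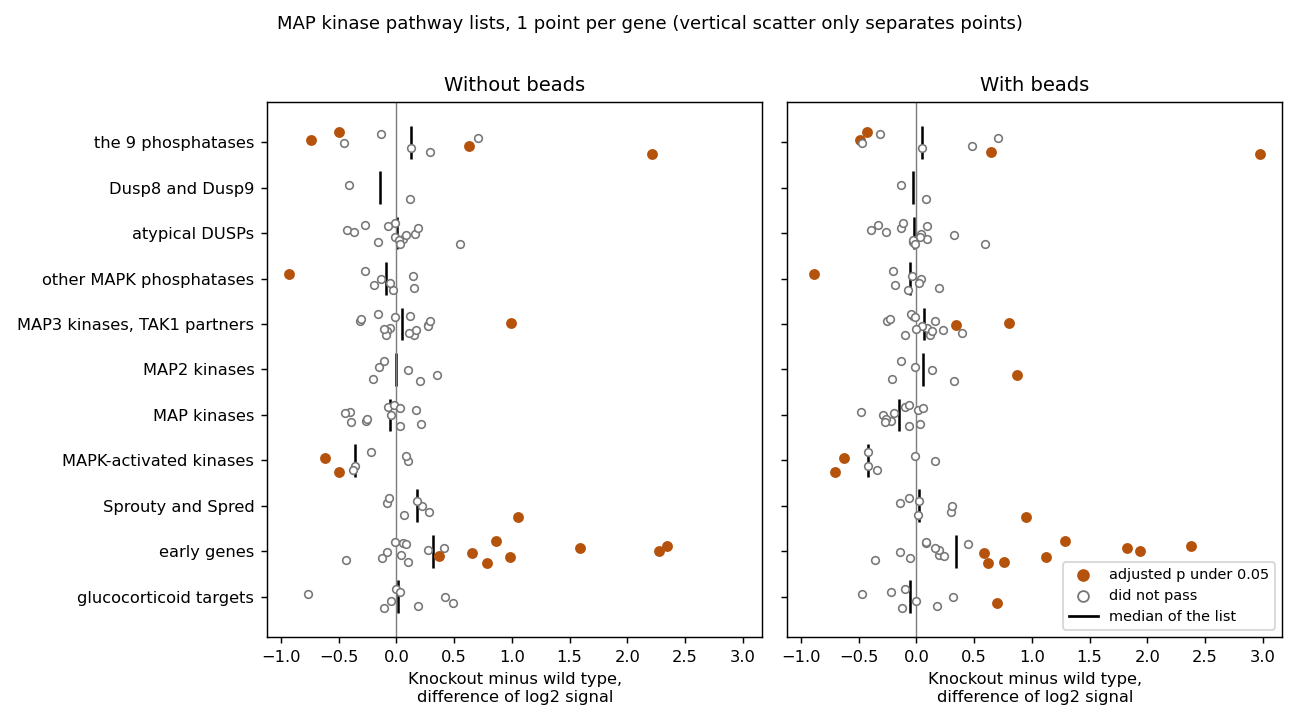
Knockout minus wild-type difference of log2 signal (horizontal axis) without beads (left) and with beads (right), with 1 point per gene for each list (vertical axis), filled where the adjusted p was under 0.05, and a bar at each list's median. The early genes reach 2.35 and 2.38 and Dusp1 2.21 and 2.97, while the MAP kinases have no filled point.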

How the data were processed

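The authors deposited 1 table of log2 signals, made with RMA per the submitters' processing notes. Its version, software and filters are not stated, nor whether the arrays were normalised together. The 28853 probe sets were named from the platform annotation (21789 carried 1 symbol), and each of 19938 genes was represented by its probe set of highest mean. These log2 values were modelled by 4 group means in limma 3.58.1 (R 4.3.3, 6 residual and 3.23 prior degrees of freedom), giving 5 contrasts with standard errors (SE). Genes passed at a two-sided Benjamini-Hochberg adjusted p under 0.05 over all genes. No signal filter was applied. On simulated arrays for the unstimulated comparison of the lines, 200 of 19938 genes were changed. Of genes changed by -1 and 1, 70 and 74% were called, and of those changed by -2 and 2, 100 and 94%. Among the unchanged genes there were 6 calls. The noise was drawn for each gene apart, with no array standing apart. In the data 1645 genes passed this comparison, so these rates need not hold there. The labels do not state separate cultures, so p-values reflect the variation among arrays, which may be technical, and the number of arrays limits precision.

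The 9 members and the 15 further lists (130 of 138 genes measured, the others not analysed here) were chosen with earlier results of these data known. In each contrast up to 3 passing genes of a list with the largest difference were named, and 3 genes were named as most like any member whose group means spanned at least 1. Alternatives were trended or robust eBayes, median centring, quantile normalisation, a filter at the 25th percentile, the compared groups alone, array weights, means over probe sets and leaving out each array.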

Additional observations from a re-analysis of the deposited data

How the results depend on the processing

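No paired analysis was possible because no replicate number is shared by the groups. Over 18 alternatives, 258 of 324 member results of the line comparisons kept direction and call, 41 lost the call, 21 gained it and 4 turned sign, none of them called. Dusp1 kept its call throughout. After median centring, quantile normalisation, in compared groups alone and with array weights, 772, 2481, 3262 and 4451 genes passed without beads (1645 in all arrays) and 734, 2283, 480 and 6083 with beads (1439). For the 9 members these were 2 and 7 after centring and quantile normalisation and 7 with array weights in each comparison. In the compared groups alone they were 6 without beads and 1 with beads. Leaving out 1 array gave 681 to 3668 genes and 1 to 7 members without beads, and 597 to 4171 genes and 1 to 7 members with beads. The lowest gene counts came without unstimulated knockout array 1 and knockout bead array 2, the highest without wild-type bead array 3. Where a group kept 1 array, it was assumed to vary like the others. Bead comparisons gave 0 genes except 9174 with array weights in wild type (4 members), 5 after quantile normalisation and 16 with array weights in the knockout (1 member), 0 to 17 genes and 0 to 1 member there without 1 array, and for the difference in response 9 with array weights and 0 to 1 without 1 array. The cause of these changes was not tested.

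Signs turned only for uncalled values. With array weights these were Dusp16 between the lines with beads (-0.065) and, for beads in wild type, Dusp1 (0.10), Dusp3 (0.075), Dusp4 (0.21, there called), Dusp5 (-0.079) and Dusp16 (9.6e-05). After median centring the difference in response of Dusp3 was 0.0037. Leaving out 1 array, Dusp2 without beads ran from -0.43 to 0.16 and Dusp16 with beads from -0.14 to 0.19 between the lines. For beads in wild type Dusp1 ran from -0.14 to 0.11, Dusp3 from -0.18 to 0.13, Dusp4 from -0.14 to 0.12, Dusp5 from -0.081 to 0.25 and Dusp16 from -0.24 to 0.091. In the knockout Dusp2 ran from -0.32 to 0.27, Dusp3 from -0.19 to 0.024, Dusp5 from -0.11 to 0.33, Dusp6 from -0.18 to 0.045, Dusp7 from -0.17 to 0.058 and Dusp10 from -0.062 to 0.12. Differences in response ran from -0.48 to 0.11 for Dusp2, -0.21 to 0.10 for Dusp3, -0.22 to 0.23 for Dusp5, -0.046 to 0.19 for Dusp7 and -0.27 to 0.057 for Dusp16.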

Other observations

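Without wild-type bead array 3, 17 genes passed limma for beads in the knockout line, 15 higher and 2 lower, and Dusp1 and Map2k3 were both among them. Map2k3, the kinase that activates the p38 substrate of DUSP1, read 9.30 and 9.30 without and 9.86 and 9.89 with beads in the knockout, a difference of 0.58 ± 0.080 (SE, adjusted p = 0.0412). With all arrays its adjusted p was 0.673. The Notch ligand Jag1 (0.96 ± 0.13), the transcriptional inhibitor Id2 (0.91 ± 0.12), the crosslinking enzyme Tgm2 (0.87 ± 0.081), the integrin subunit Itga5 (0.80 ± 0.12) and the protease Furin (0.78 ± 0.084) were also higher, and Cd72 (-0.63 ± 0.083) and Gpr162 (-0.81 ± 0.10) were lower. These genes are named after their values were seen, and with all 10 arrays 0 genes passed. The unstimulated knockout signals of Jag1 (6.46 and 6.07) were near those of Dusp2, which cannot be told from background.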
